A study of Mus musculus with 6 samples.

Results

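Cyclins and cyclin-dependent kinases (CDKs) were followed in whole newborn mouse ovary, in 4 arrays of animals lacking both Sohlh1 and Sohlh2 and 2 arrays of wildtype animals. The members were all genes whose array symbol starts with Ccn and a letter, without Ccndbp1 and Ccnb1ip1, or is Cdk followed by digits alone. This gave 45 of the 19057 genes named on the array, 26 cyclins and 19 kinases, with 103 of the 45281 probes. The double-knockout arrays are numbered 1, 2, 3 and 5 and the wildtype arrays 2 and 3, as in the titles. All 6 samples were total RNA from newborns of the strain C57BL/6/129S6/SvEv, and the genotype was the one stated difference. Both genes code for germ-line transcription factors of the basic helix-loop-helix class. How the alleles were made, whether ovaries were pooled and whether the arrays came from separate litters is not given in the sources used here, so the p-values speak to the spread among these samples alone, which may be technical. In whole tissue, fewer cells of a type and less RNA per cell cannot be told apart.

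Cyclins bind and switch on CDKs, and the paired enzymes move cells through the division cycle. D-type cyclins act with Cdk4 and Cdk6 early in the cycle, E-type and A-type cyclins with Cdk2 around DNA replication, and A-type and B-type cyclins with Cdk1 at division. Other pairs work in transcription, and a further set, Ccno among them, has specialised or poorly known roles. Around birth the oocytes of the mouse ovary are arrested in meiotic prophase, while the surrounding pregranulosa and stromal cells can still divide.

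The arrays detected 20124 to 20331 probes in the double knockout and 20459 and 20594 in wildtype. The small number of arrays, 6 in all, limits the precision. Sohlh1 was lower in the double knockout at both of its probes (-3.33 and -3.30 as log2 fold changes, which here always set the double knockout over wildtype), yet each was detected on 6 of 6 arrays. Sohlh2 has 1 probe, detected on 0 arrays of the double knockout and 1 of wildtype. No source used here places these probes inside or outside a deletion. Double-knockout arrays 3 and 5 lay at opposite ends of the second principal component of all tested probes (34.5 and -32.0). The levels below are log2 intensities after background correction and quantile normalization, and a probe was tested where it was detected on at least 2 of the 6 arrays.

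Of the 45 genes, 38 had a tested probe, 21 cyclins and 17 kinases, and 68 of the 103 probes were tested. Of the 38, 1 gene (Ccno) fell, 1 (Cdk20) rose and 36 did not pass limma's two-sided test at a Benjamini-Hochberg adjusted p of 0.05 over all 21981 tested probes, each gene read at its brightest tested probe. Among all 12163 tested genes, 3.59% fell and 4.79% rose. Either way, 2 of 38 members passed, against 8.39% of all tested genes. By probe, 3 of 68 passed (4.41%), 1 lower and 2 higher, against 7.27% of all tested probes, of which 3.62% were lower and 3.65% higher. At an unadjusted p under 0.05 there were 15 of 68 member probes (22.1%), against 24.5% of all. The median change was 0.01 over the 38 member genes and 0.03 over all tested genes, and 18 of the 38 (47.4%) lay below 0, against 46.9% of all. These shares were close to or below those of tested genes at large.

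**Figure D1:**
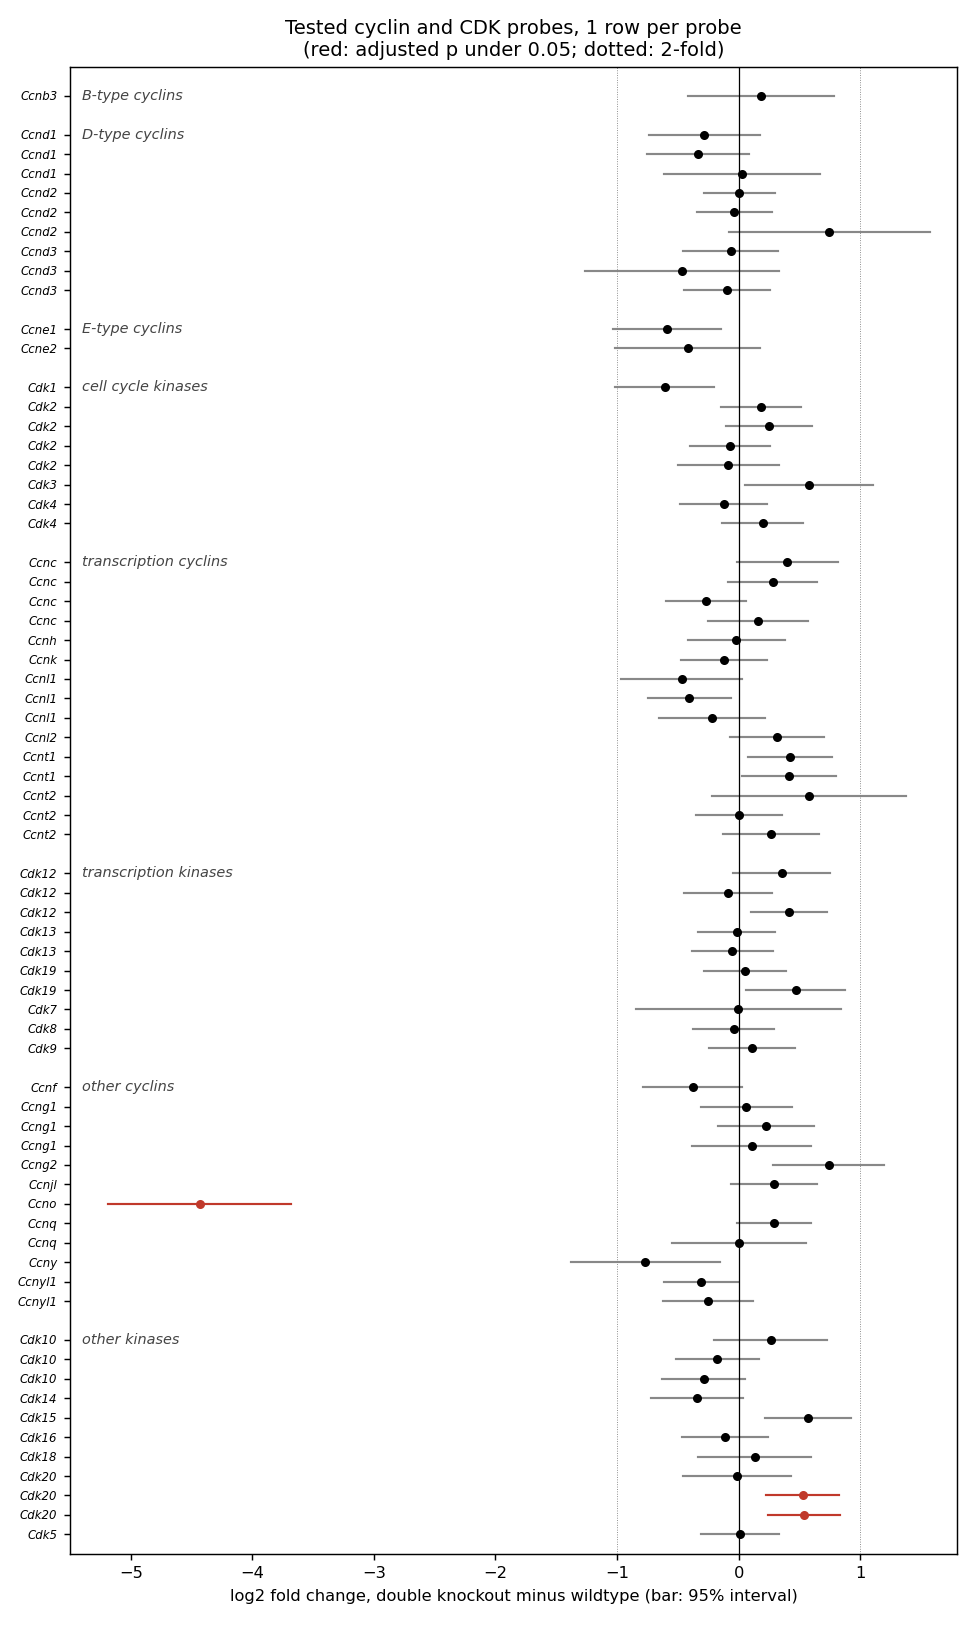
The log2 fold change of each tested cyclin or CDK probe (double knockout minus wildtype, with its 95% interval from limma) is plotted by role, 1 row per probe. Ccno stands alone at -4.43, 2 Cdk20 probes are called higher at 0.53 and 0.54, and the other 65 probes lie between -0.77 and 0.75.

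Ccno, cyclin O, was the largest fall of any of the 12163 tested genes. The gene is known for the making of multiple centrioles in ciliated epithelia, and it has been tied to meiotic resumption in mouse oocytes. Its raw signals were 290.6, 171.4, 233.1 and 359.2 on double-knockout arrays 1, 2, 3 and 5, against 6807.5 and 4578.6 on wildtype arrays 2 and 3. Each wildtype array was many times brighter than every double-knockout array. On the log2 scale the levels were 8.24, 7.08, 7.62 and 8.37 in the double knockout, against 12.46 and 12.06 in wildtype. Means were 7.83 ± 0.60 (SD, n = 4) and 12.26 ± 0.28 (SD, n = 2), with a gap of 3.69 between the nearest arrays of the groups. The change of -4.43 ± 0.33 (SE; limma adjusted p = 2.9e-04) was a 21.6-fold fall, with a 95% interval of 12.8-fold to 36.5-fold. An exact permutation test of 4 arrays against 2 gave p = 0.0667 (two-sided), the smallest it can give, so the call rests on the spread pooled across probes. The probe was detected on all 6 arrays, so the signal that was left in the double knockout was above background. Without each array in turn the change ran from -4.63 to -4.17, and Ccno kept its call each time.

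Most tested germ cell markers fell along with Ccno. Of 16 genes on the array in a list of germ cell and oocyte markers, 13 were tested. Of these 13, 9 fell and 0 rose, beside 3.59% and 4.79% of all tested genes, with a median of -2.29. Their summed log2 level was 12.95 to 13.66 on double-knockout arrays and 14.55 to 15.05 on wildtype arrays. The falls included the oocyte homeobox factor Lhx8 (-3.73), the egg-coat protein Zp3 (-2.73), the maternal NLR protein Nlrp14 (-3.22) and the secreted factor Gdf9 (-2.73). The RNA-binding protein Dazl gave -0.27 (limma adjusted p = 0.491) and the helicase Ddx4 gave -0.40 (0.278), and neither passed. Zp3 lost its limma call when wildtype array 2 was left out (adjusted p = 0.181) or wildtype array 3 (0.0846), and Nlrp14 gave 0.12 and 0.0554 in the same fits. Figla, Nlrp5 and Zp1 also lost their calls without either wildtype array. Nlrp5 (-1.21) lost its call without double knockout 1, 2 or 5 too, and Zp1 (-2.29) without double knockout 1, 2 or 3. Over the left-out fits Nlrp5 ran from -1.68 to -0.74 and Zp1 from -2.78 to -1.93. Lhx8, Gdf9, Npm2 and Kit kept their calls in each of these fits. Dazl and Ddx4 were picked after their values were seen. The part of oocyte number in the change of Ccno was not tested.

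No tested marker of ciliated cells was called lower beside Ccno. A list of multiciliated cell genes had 14 on the array, and 7 of them were not tested. Of the 7 tested, 0 fell and 1 rose (median 0.03), beside 3.59% and 4.79% of all tested genes. Their summed log2 level was 10.41 to 10.59 in the double knockout and 10.46 to 10.61 in wildtype. That sum leans on its brightest genes, Rfx2 and Rsph1 (means of 9.71 and 8.10 in wildtype). Foxj1, Spag6 and Myb were dim, with wildtype means of 5.03, 4.95 and 4.84, near the lowest detected level there (4.72 and 4.73). Of the 7, 2 had changes below 0 and 5 above. Below 0 were Rfx2 at -0.38 (limma adjusted p = 0.172) and Spag6 at -0.32 (0.264), and neither passed. Every double-knockout array read lower than both wildtype arrays for Rfx2. Spag6 was detected on 1 double-knockout array and 2 wildtype arrays. Foxj1, the master regulator of motile cilia, gave 0.15 (limma adjusted p = 0.685). Foxj1, Rfx2 and Spag6 were picked after their values were seen. Rsph1, a radial spoke protein of cilia, rose by 0.67 (limma adjusted p = 0.0424). That call was lost in limma when wildtype 2, wildtype 3, or double knockout 1, 2 or 5 was left out, with adjusted p up to 0.326.

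Ccno lies on chromosome 13 beside Mcidas, a switch of the multiciliated programme, and Cdc20b, another gene of that programme. Neither neighbour was tested here: the 2 Mcidas probes were detected on at most 1 array and the single Cdc20b probe on 0. The other genes within 3 protein-coding genes of Ccno, in the RefSeq order of GRCm38.p6, did not pass. Dhx29, an RNA helicase of translation, gave -0.38 (limma adjusted p = 0.165), and Mtrex, a helicase of the nuclear exosome, gave -0.40 (0.241). Plpp1, a lipid phosphatase, gave 0.34 (0.175), and Gpx8, a peroxidase of the endoplasmic reticulum, gave -0.10 (0.742).

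**Figure D2:**
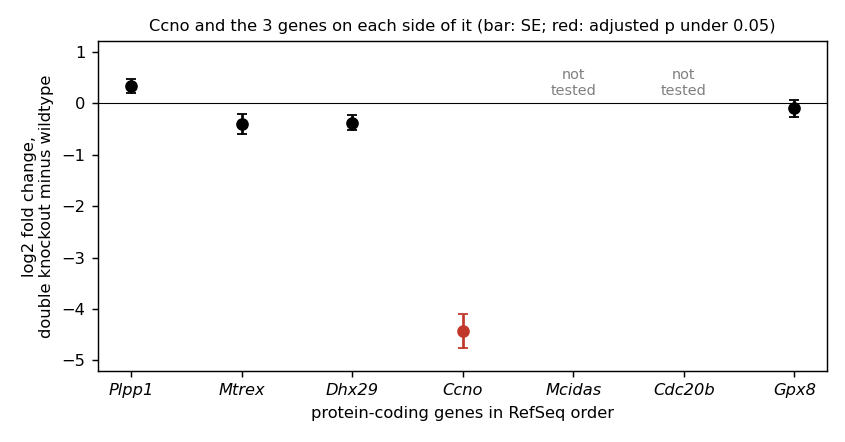
The log2 fold change (double knockout minus wildtype, with its SE) is plotted for Ccno and the 3 protein-coding genes on each side of it. Ccno is at -4.43, its 4 tested neighbours lie between -0.40 and 0.34, and Mcidas and Cdc20b were not tested.

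The promoters of the called members Ccno and Cdk20 are shown for their E-boxes, CANNTG, the class of site that basic helix-loop-helix factors bind. The windows run from 250 bases before to 50 bases after the RefSeq start in GRCm38.p6, on the plus strand of chr13:112987552-112987851 for Ccno and chr13:64432303-64432602 for Cdk20. Capitals mark each E-box.
Ccno: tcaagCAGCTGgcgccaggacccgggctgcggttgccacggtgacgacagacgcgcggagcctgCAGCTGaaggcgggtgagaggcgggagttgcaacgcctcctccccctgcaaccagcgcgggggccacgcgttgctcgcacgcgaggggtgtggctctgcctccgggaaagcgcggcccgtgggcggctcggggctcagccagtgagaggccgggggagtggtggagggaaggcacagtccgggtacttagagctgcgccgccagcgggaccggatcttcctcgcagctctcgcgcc
Cdk20: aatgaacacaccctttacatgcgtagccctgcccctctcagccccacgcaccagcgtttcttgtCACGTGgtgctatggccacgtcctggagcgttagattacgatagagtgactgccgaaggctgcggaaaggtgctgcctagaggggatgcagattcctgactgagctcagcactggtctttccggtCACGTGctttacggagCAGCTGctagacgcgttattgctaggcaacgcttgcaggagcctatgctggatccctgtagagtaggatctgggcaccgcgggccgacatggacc
The motif reads the same on both strands, so each match was counted once. Ccno held CAGCTG at positions -245 and -186 from the start, and Cdk20 held CACGTG at -186 and -61 and CAGCTG at -45. E-boxes are common: 72.3% of 32851 promoters of this length held at least 1, and 56.8% of the 37 windows of 35 members did (the other 10 members had no entry). At least 2 copies of CAGCTG, as in Ccno, were in 1.9% of all promoters, and at least 3 E-boxes, as in Cdk20, in 17.6%. Each of these 2 measures was set by the sequence of the gene itself, so the shares cannot be compared and test nothing. A match is only a match of letters.

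Cdk20, the other called member, rose by a small amount. It encodes a kinase known in mouse for its part in primary cilia and hedgehog signalling. Its brightest probe read 8.79, 8.63, 8.78 and 8.81 on double-knockout arrays 1, 2, 3 and 5, against 8.21 and 8.24 on wildtype arrays 2 and 3. All 4 double-knockout arrays were above both wildtype arrays. The change was 0.53 ± 0.13 (SE; limma adjusted p = 0.0466), a 1.44-fold rise with a 95% interval of 1.17-fold to 1.78-fold. A further probe read 6.89, 6.79, 6.84 and 6.96 in the double knockout, against 6.35 and 6.31 in wildtype, and gave 0.54 ± 0.13 (SE; limma adjusted p = 0.0441). A probe of similar brightness to the first gave -0.01 ± 0.20 (SE; adjusted p = 0.980), with overlapping groups, and the remaining probe was not tested. The call was fragile: the adjusted p of the brightest probe was 0.0526 to 0.259 when any 1 of the 6 arrays was left out, and that of the further probe was 0.0564 to 0.226. With the mean of all its tested probes, Cdk20 gave 0.35 (limma adjusted p = 0.132). Of the 3 protein-coding genes before it on chromosome 13, Cdc14b, a phosphatase, rose by 0.77 (0.0484), while Prxl2c (0.33) and Ctsl (-0.47) did not pass, and the 3 after it were detected on 0 arrays.

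**Figure D3:**
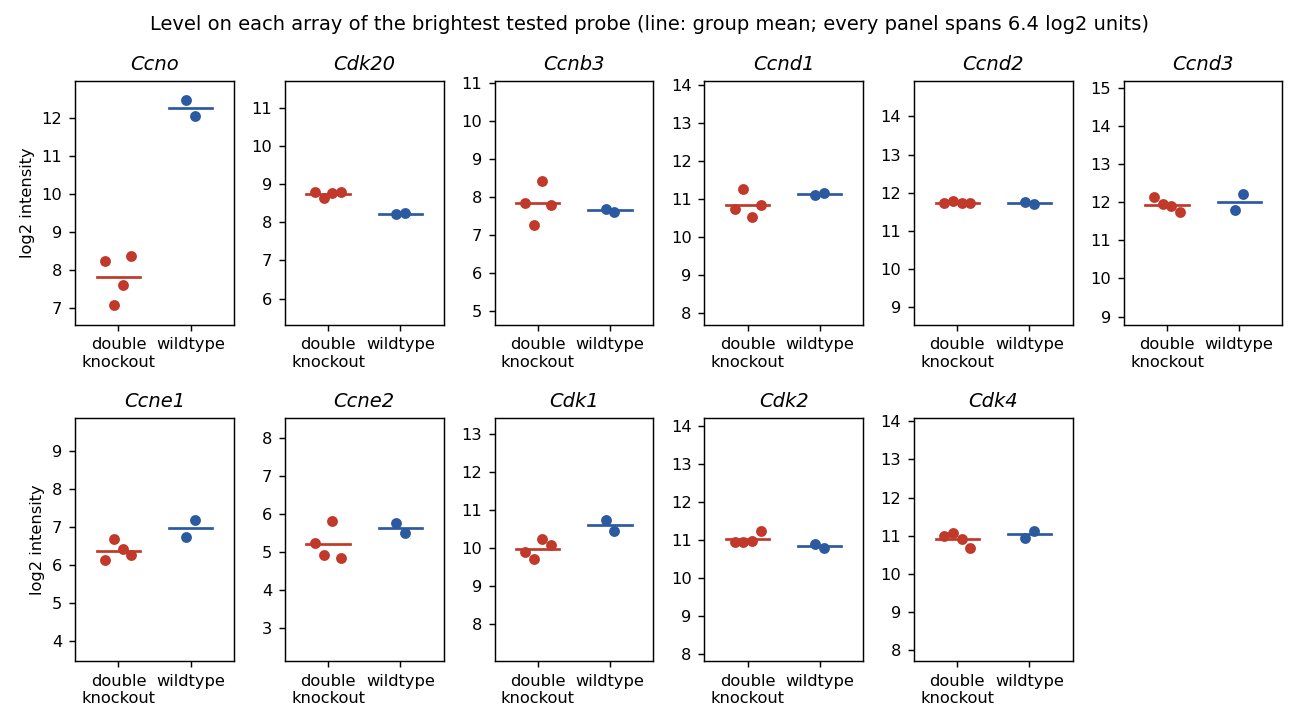
Log2 intensities of the brightest tested probe are plotted for 11 members, with 1 point per array, double knockout left of wildtype, and a line at each group mean. Ccno falls to 7.08 to 8.37 in the double knockout, against 12.06 and 12.46 in wildtype, while the other panels, drawn at the same span, show shifts of less than 1 log2 unit.

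The D-type cyclins, which carry growth signals to Cdk4 and Cdk6, showed no called change at any of 9 tested probes. Ccnd2, the D-type cyclin that granulosa cells need to multiply, read 11.73, 11.77, 11.72 and 11.71 in double-knockout arrays 1, 2, 3 and 5, against 11.77 and 11.69 in wildtype arrays 2 and 3. The ranges of the groups overlapped, and the change of 0.01 had a 95% interval of -0.28 to 0.30. A dimmer Ccnd2 probe varied more, from 7.25 on double-knockout array 3 to 8.69 on array 5, against 7.52 and 6.76 in wildtype, and gave 0.75 ± 0.36 (SE; limma adjusted p = 0.250). Ccnd1 read 10.72, 11.27, 10.52 and 10.85 in the double knockout, against 11.10 and 11.14 in wildtype. The wildtype levels lay inside the double-knockout range, and the change was -0.28 with an interval of -0.74 to 0.18. Ccnd3 read 12.14, 11.96, 11.91 and 11.75 in the double knockout, against 11.79 and 12.22 in wildtype, a change of -0.07 with an interval of -0.46 to 0.33.

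The E-type cyclins, partners of Cdk2 at the start of DNA replication, averaged lower levels in the double knockout, and neither passed. Ccne1 read 6.15, 6.70, 6.42 and 6.27 in the double knockout, against 6.75 and 7.20 in wildtype. The groups did not overlap, by a margin of 0.05, and the change was -0.59 ± 0.20 (SE; limma adjusted p = 0.103). It was -0.36 when wildtype 3 was left out (limma adjusted p = 0.455). Ccne2 read 5.24, 4.91, 5.82 and 4.82 in the double knockout, against 5.75 and 5.49 in wildtype. Double-knockout array 3 was above both wildtype arrays, and the change was -0.42 ± 0.26 (SE; adjusted p = 0.369).

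Of the B-type and A-type cyclins among the members only Ccnb3, a cyclin that mouse oocytes need to leave the first meiotic metaphase, could be tested. It read 7.85, 7.27, 8.41 and 7.79 in the double knockout, against 7.69 and 7.61 in wildtype. Array 2 was below and arrays 1, 3 and 5 were above both wildtype arrays, and the change was 0.18 ± 0.27 (SE; limma adjusted p = 0.723). Ccna2, the cyclin of replication and early division in most cells, was detected on 0 arrays, with raw signals of 52.5, 48.2, 44.0 and 53.8 in the double knockout and 54.7 and 50.6 in wildtype. Ccnb2, a partner of Cdk1, was also detected on 0 arrays, as was Ccna1, a cyclin of male meiosis whose gene lies 3 protein-coding genes from Sohlh2 on chromosome 3. Each of the 3 genes had a single probe, so these readings give no change and no level. Ccnb1, a further B-type cyclin, is not among the members, as no probe carried it as its single symbol.

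Cdk1, the kinase that drives cells into division, came close to the threshold. Its tested probe read 9.90, 9.71, 10.24 and 10.08 on double-knockout arrays 1, 2, 3 and 5, against 10.73 and 10.45 on wildtype arrays 2 and 3. All double-knockout arrays were below both wildtype arrays, by 0.21, and the change was -0.61 ± 0.18 (SE), with an interval of -1.02 to -0.20 and limma adjusted p = 0.0750. The 2 other Cdk1 probes were each detected on 1 array, in wildtype, and were not tested. With no background correction the same probe passed (-0.58, adjusted p = 0.0460), as it did with the authors' normalized values (-0.57, 0.0450) and with moderation that follows intensity (-0.61, 0.0236). When 1 of the 6 arrays was left out it passed in 0 of the 6 fits.

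The Cdk1 promoter is shown for TTTGAA, the core of the element through which many division genes are held down outside division. It lies on the minus strand of chr10:69352863-69353162 in GRCm38.p6, 250 bases before to 50 after the RefSeq start, and is written 5′ to 3′ on that strand with the matches in capitals.
Cdk1: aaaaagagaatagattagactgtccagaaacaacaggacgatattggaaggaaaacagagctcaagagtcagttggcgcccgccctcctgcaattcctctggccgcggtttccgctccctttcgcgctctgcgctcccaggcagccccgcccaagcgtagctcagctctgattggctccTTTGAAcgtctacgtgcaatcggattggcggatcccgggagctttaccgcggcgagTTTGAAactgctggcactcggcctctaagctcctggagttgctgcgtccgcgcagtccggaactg
The letters were found at -71 and -15 from the start. TTTGAA or its reverse complement TTCAAA was in 17.9% of all promoters, and in 13.5% of the 37 member windows. At least 2 copies, a measure set by Cdk1 itself, were in 2.31% of all. The members Ccnb2, Ccnf and Ccni also held 2.

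Cdk2, Cdk3 and Cdk4 did not pass, and Cdk6 was not tested. Cdk2, the kinase of the replication phase, read 10.93, 10.94, 10.98 and 11.23 in the double knockout, against 10.89 and 10.78 in wildtype, a change of 0.18 with an interval of -0.15 to 0.52. Its other 3 tested probes gave 0.25, -0.07 and -0.08. Cdk4, the partner of D-type cyclins, read 10.98, 11.07, 10.92 and 10.67 in the double knockout, against 10.95 and 11.12 in wildtype. The overlapping levels gave -0.12 with an interval of -0.48 to 0.23. A dimmer Cdk4 probe gave 0.20 (limma adjusted p = 0.450), with all double-knockout arrays above both wildtype arrays. Cdk3, whose dim probe is annotated to a non-coding transcript record, gave 0.58 ± 0.23 (SE; limma adjusted p = 0.167). The single probe of Cdk6, the other partner of D-type cyclins, was detected on 1 array and had raw signals of 50 to 60 in the double knockout, against 57.3 and 70.9 in wildtype.

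The 7 transcription cyclins and 6 transcription kinases were all tested, with 15 and 10 probes, and 0 of these genes were called in either direction. Ccnc and its kinases Cdk8 and Cdk19 sit on the Mediator complex, Ccnh and Cdk7 belong to the general factor TFIIH, Ccnt1 and Ccnt2 join Cdk9 in the elongation factor P-TEFb, Ccnk pairs with Cdk12 and Cdk13, and Ccnl1 and Ccnl2 act in splicing. Changes ran from -0.47 at a Ccnl1 probe to 0.58 at a Ccnt2 probe among the cyclins, and from -0.09 at a Cdk12 probe to 0.47 at a Cdk19 probe among the kinases. Ccnt1 was the member of this group with the lowest p at its brightest probe. It read 10.74, 10.80, 10.67 and 11.07 in the double knockout, against 10.38 and 10.42 in wildtype. The groups did not overlap, and the change was 0.42 ± 0.15 (SE; limma adjusted p = 0.131), with 0.41 at its other probe. Cdk9, its kinase, gave 0.11 with an interval of -0.24 to 0.46, and Cdk8 gave -0.04 with -0.37 to 0.29.

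Among the other cyclins, Ccng2 and Ccny had the largest changes after Ccno, and neither passed. Ccng2, a cyclin that slows rather than drives the cycle, read 5.94, 5.38, 5.84 and 5.82 in the double knockout, against 4.76 and 5.25 in wildtype. All double-knockout arrays were above both wildtype arrays, and the change was 0.74 ± 0.20 (SE; limma adjusted p = 0.0609). It was 0.49 when wildtype 2 was left out, and it passed without double-knockout array 2 (0.86, adjusted p = 0.0337) and with scaling to the 75th percentile (0.83, 0.0464). Ccny, a membrane-bound cyclin that acts with Cdk14 in Wnt signalling, read 8.37, 8.16, 7.96 and 8.61 in the double knockout, against 9.51 and 8.57 in wildtype. The 2 wildtype arrays differed by 0.95, more than the change of -0.77 ± 0.27 (SE; limma adjusted p = 0.12), which was -0.29 when wildtype 2 was left out and -1.24 when wildtype 3 was. Its relative Ccnyl1 gave -0.31 and -0.25 at its 2 probes, and Ccnf, an F-box protein that marks proteins for destruction, gave -0.38. Ccng1, a target of p53, gave 0.06 to 0.22 at 3 probes, and Ccnq, the partner of Cdk10, gave 0.29 and 0.00. Ccnjl gave 0.29, and Ccni and Ccnj had no tested probe.

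Among the other kinases, Cdk15 was nearest to the threshold after Cdk20. It read 5.45, 5.29, 5.25 and 5.48 in the double knockout, against 4.97 and 4.62 in wildtype, where it was detected on 1 array. The groups did not overlap, and the change was 0.57 ± 0.16 (SE; limma adjusted p = 0.0617). Cdk14, the Wnt-pathway kinase that Ccny activates, gave -0.34 at its 1 tested probe of 8 on the array. Cdk16, a further partner of Ccny, gave -0.11, and Cdk5, best known from neurons, gave 0.01 with an interval of -0.31 to 0.33. Cdk10 gave 0.26, -0.18 and -0.29 at its 3 tested probes, Cdk18 gave 0.13 and Cdk17 had no tested probe.

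Most members were measured well enough to bound a change. The 95% interval lay inside a 2-fold change either way for 58 of 68 member probes, and 57 of the 65 probes that were not called changed by less than 0.5 on the log2 scale. The 10 exceptions to the first count were Ccno, Ccng2, Ccny, Cdk1, Cdk3, Ccne1, Ccne2 and 1 probe each of Ccnd2, Ccnd3 and Ccnt2. A dimmer Ccnd3 probe, detected on 1 array of each group with means of 4.61 and 4.71, counted as inside. At such levels, near the lowest detected, a narrow interval bounds little. The share of all tested probes was not taken for either count. All arrays of one group lay above or below all of the other at 25 of 68 probes (36.8%), against 34.8% of all tested probes. The double-knockout arrays were above wildtype at 16 of these probes (23.5%, against 17.8% of all) and below at 9 (13.2%, against 17.0%). The median SD between double-knockout arrays was 0.20 over member probes and 0.19 over all tested probes, and each of the 4 arrays was the highest at 15 to 20 of the 68 probes. Of 17 genes with more than 1 tested probe, 8 had probes of both signs. The median spread between the probes of a gene was 0.36.

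Genes that control the cyclins and CDKs, or act elsewhere in mitosis or meiosis, were taken from 6 lists with 69 tested members. Their calls stand beside 3.59% of all tested genes that fell and 4.79% that rose. Of the 8 CDK inhibitors, all tested, 1 fell, 0 rose and 7 did not pass, with a median of 0.17. The fall was Cdkn2a, the locus of the Cdk4 inhibitor p16 and of Arf, which read 5.11, 5.46, 5.42 and 5.38 in the double knockout, against 6.98 and 6.85 in wildtype. The groups were far apart, and the change was -1.58 ± 0.15 (SE; limma adjusted p = 7.4e-04), a 2.98-fold fall that became -0.89 with no background correction and -0.90 with the authors' normalized values, and passed under both. The probe does not tell the transcripts of the locus apart as far as the annotation shows. Of 11 activators and inhibitory kinases, 0 were called, with a median of 0.00. The brightest of them were Mnat1, the assembly factor of the Cdk7 complex (-0.07), and Cables1, a protein that links CDKs to other kinases (0.27). At an unadjusted p under 0.05, 2 of these 11 would pass, where 26.4% of all tested genes do.

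In the retinoblastoma and E2F list 2 of 13 tested genes fell and 1 rose, beside 3.59% and 4.79% of all tested genes. The median of the list was -0.17. Mybl2, a transcription factor of division genes, read 8.13, 8.27, 8.13 and 8.16 in the double knockout, against 9.60 and 9.49 in wildtype. The change was -1.37 ± 0.13 (SE; limma adjusted p = 7.4e-04), and it kept its call when any 1 array was left out. E2f5, a repressor of the E2F family, fell by 0.81 (adjusted p = 0.0437), and E2f2, an activator of the family, rose by 1.19 (0.0135). E2f2 lost its limma call when wildtype array 2 was left out (adjusted p = 0.159) or wildtype array 3 (0.0625). E2f5 lost its call when wildtype 2, wildtype 3, or double knockout 1, 2 or 3 was left out (limma adjusted p up to 0.336).

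Of 14 tested genes that destroy cyclins, 1 fell (Anapc11, the RING subunit of the anaphase-promoting complex, -0.77) and 13 did not pass. Their median was -0.11, and 3.59% of all tested genes fell. Anapc11 lost its call when wildtype 2, wildtype 3 or double knockout 1 was left out (limma adjusted p up to 0.163), and read -0.38 with no background correction. Of 15 tested mitotic and proliferation genes, 1 fell (Prc1, which bundles the spindle midzone, -0.76) and 14 did not pass, with a median of -0.39. All 15 had changes below 0, against 46.9% of all tested genes, and the highest was -0.10. Prc1 lost its call in the fits lacking wildtype 2, wildtype 3, or double knockout 1, 2 or 3 (limma adjusted p up to 0.311). Of 8 tested genes of meiotic cell cycle control, 2 fell and 6 did not pass, with a median of -0.50. Mos, the kinase that holds eggs in the second meiotic arrest, fell by 2.08 and was detected on 1 double-knockout array, with -1.05 where no background was subtracted and -1.08 in the authors' normalized values, and Btg4, which clears maternal RNA, fell by 2.23. Over the 6 lists 8 of 69 genes were called, beside 8.39% of all tested genes, and 5 when double knockout 1 was left out. All of the 8 but E2f2 were falls, where 3.59% of all tested genes fell and 4.79% rose.

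**Figure D4:**
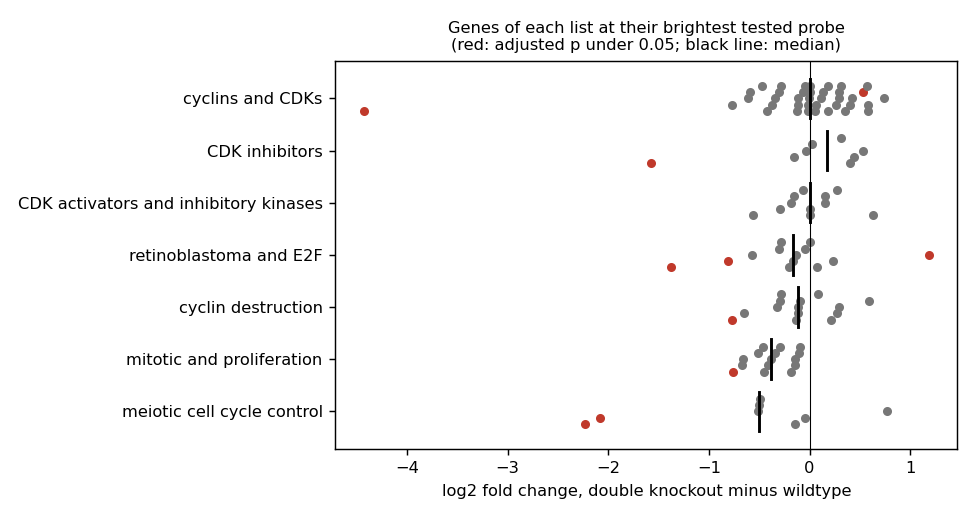
The log2 fold change (double knockout minus wildtype) of each tested gene is plotted for the cyclins and CDKs and for the 6 lists of related cell cycle genes, with a line at each list's median. The medians run from -0.50 for meiotic cell cycle control to 0.17 for the CDK inhibitors, and Ccno at -4.43 is the lowest point of all.

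Markers of the other cells of the ovary were read beside the family. For comparison, 3.59% of all tested genes fell and 4.79% rose. Of 12 tested pregranulosa markers 2 rose and 0 fell (median 0.35), with a summed log2 level of 13.17 to 13.39 in the double knockout and 12.47 to 12.96 in wildtype. The rises were Runx1, a transcription factor (0.67), and Amhr2, which binds anti-Müllerian hormone (0.63). Runx1 lost its call in the fits that left out wildtype 2, wildtype 3 or double knockout 1 and read 0.10 as the mean of its probes. Amhr2 lost its call in each of the 6 left-out fits, with adjusted p up to 0.349 in limma. Of 9 stromal markers 0 were called (median -0.14). Their summed level was 14.46 to 14.72 in the double knockout and 14.66 to 14.67 in wildtype, and the brightest, the matrix proteins Dcn and Lum, gave -0.09 and -0.34. Of 7 endothelial markers 0 were called (median 0.37). Their summed level was 12.16 to 12.44 in the double knockout and 11.87 to 12.10 in wildtype, and the brightest, the surface proteins Esam and Emcn, gave 0.42 and -0.05. Of 8 macrophage and leukocyte markers 0 were called (median 0.04). Their summed level was 10.15 to 11.15 in the double knockout and 10.45 to 10.80 in wildtype, and the brightest, Fcer1g and C1qb, gave 0.15 and -0.26. Of 7 markers of mesonephric and oviduct epithelium 1 fell, the cadherin Cdh16 (-1.06), with a median of -0.17 and a summed level of 11.48 to 12.08 in the double knockout and 11.97 to 12.07 in wildtype. Of 5 erythroid markers 1 rose, Alas2, an enzyme of heme synthesis (1.34). All 5 had changes above 0, as did all 12 pregranulosa markers. All 7 markers of mesonephric and oviduct epithelium and all 13 germ cell markers were below 0, against 46.9% of all tested genes. The erythroid median was 1.34, the highest of the marker lists. The summed erythroid level was 14.67 to 14.89 in the double knockout and 14.52 to 14.63 in wildtype. The membrane protein Slc4a1 gave 3.71 (limma adjusted p = 0.0625) and the transcription factor Klf1 gave 1.54 (0.184), both picked after their values were seen. Cdh16 lost its call when wildtype 2, wildtype 3 or double knockout 3 was left out (limma adjusted p up to 0.195). Alas2 lost it when wildtype 2, wildtype 3, or double knockout 1 or 3 was left out (up to 0.223). The part of cell composition in the levels of the cyclins and CDKs was not tested.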

How the data were processed

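Total RNA from newborn ovary was labelled with biotin and hybridised to Illumina MouseWG-6 v2 BeadChips. The deposited table used here holds the raw, non-normalized intensity of each probe on each of the 6 arrays. Beside it the authors deposited a detection score per probe and array, which runs as 1 minus the detection p-value. A second deposited table holds the authors' normalized intensities, and GenomeStudio is named per the submitters' processing notes. How those were normalized is not given in the sources used here.

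Intensities were background-corrected by normexp from the detection p-values with an offset of 16, log2-transformed and quantile normalized in limma 3.58.1 (R 4.3.3). Probes with a detection p under 0.05 on 2 or more of the 6 arrays were tested. The double knockout (4 arrays) was compared with wildtype (2 arrays) by lmFit and eBayes, two-sided, with Benjamini-Hochberg adjustment over 21981 probes and a threshold of 0.05. Symbols came from the platform annotation: 34885 probes had 1 gene symbol, 18 several and 10378 none. A gene was read at its brightest tested probe. The fit was also run on data simulated from its own variance model, which checks the code and bears on none of the results.

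The members and lists were chosen with earlier results of these data known. Values on every array are given for called members and a fixed set (A-, B-, D- and E-type cyclins, Ccno, Cdk1, Cdk2, Cdk4 and Cdk6). The exceptions are Ccna1 and Ccnb2, given by detection alone, Cdk6, given as a range in the double knockout, and Ccnb1, which had no probe of its own. Each list names up to 4 called genes or, with none called, its 2 brightest. Cdk15, Ccng2, Ccnt1 and Ccny were given by array after their values were seen. The alternatives were no background correction, an offset of 50, scaling to the 75th percentile, the authors' normalized values, no filter, a stricter filter (detection p under 0.01), the mean of a gene's probes, intensity-dependent robust moderation, array weights, a block by either set of sample numbers, and leaving out each array.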

Additional observations from a re-analysis of the deposited data

Results flagged for a closer look

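On 2 of the 68 tested cyclin and CDK probes, 1 double-knockout array stood apart from the other 3 by more than Dixon's test allows for 4 samples. Chance flags about 1 in 20 groups, so a count of this size is not above it. A Cdk10 probe read 6.98 on double-knockout array 3, against 6.68, 6.73 and 6.70 on arrays 1, 2 and 5. The brightest Cdk2 probe read 11.23 on double-knockout array 5, against 10.93, 10.94 and 10.98 on arrays 1, 2 and 3. Neither probe passed limma's test between the groups.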

How the results depend on the processing

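Ccno was called lower under all 17 alternatives, with changes of -4.91 to -4.11 and limma adjusted p up to 0.0103, and 0 of the results named reversed their direction when called. The number of member genes called lower was 1, and 2 with no background correction, with the authors' normalized values, with intensity-dependent robust moderation and with the description-number block, where Cdk1 was the added gene. It was 1 in each fit without 1 array. The number called higher was 1, and 3 with scaling to the 75th percentile, where Ccng2 and Cdk15 joined Cdk20, 2 with array weights, and 0 to 1 without 1 array. With the mean of a gene's probes it was again 1, Cdk15 in place of Cdk20. The number of member probes called was 3, and 6 with scaling to the 75th percentile and 1 to 2 without 1 array. Over the lists of regulators 8 genes were called, and 13 with no background correction, 13 with the authors' normalized values, 14 with intensity-dependent robust moderation, 5 with no filter, and 4 to 8 without 1 array. The number of all genes called was 1020, and 160, 289 and 567 when wildtype 2, wildtype 3 and double knockout 1 were left out in turn. Changes of dim probes were smaller with no background correction: Ccng2 gave 0.33 and Cdk15 gave 0.23. The causes of these differences were not tested.

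Sample numbers differ between titles and descriptions, and neither was taken to pair the samples. Deviations of same-numbered samples correlated at -0.10 and -0.03 by title and -0.11 and 0.10 by description, but with 2 wildtype arrays these values mirror each other, and they cannot settle whether the samples are paired. With a replicate block by title numbers, 0 member genes were called higher and 1 member probe was called, and 591 of all genes. With the block by description numbers 0 were called higher. Cdk20 gave 0.48 (limma adjusted p = 0.254) and 0.49 (0.163) in these fits.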
